A study of Oryctolagus cuniculus with 4 samples.

Results

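The genes described here copy and mend DNA. A list of 47 genes, 38 of DNA replication and 9 of DNA repair, was searched for among the non-control probes of the array by gene name, accession or the gene named in the probe's description. Of these, 35 genes had a probe found in this way, 29 of replication and 6 of repair, out of 9874 genes that could be named on the array. They were measured by 91 of the 43595 probes tested. MCM2, CDT1, CDC45, GINS1, GINS2, PCNA, RFC2, POLD1, POLE2, XRCC2, NEIL3 and FANCD2 were not found under these names and were not analysed here. Of 43603 probes, 21263 were given no symbol, and some of these may measure the missing genes. The paper on these arrays names XRCC2 and NEIL3 among the genes of its altered DNA and RNA binding categories. Of the 35 genes, 22 had several probes and 13 had 1, and each gene is given by its brightest probe unless another is mentioned.

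Transcripts of parthenote and in vivo fertilised blastocysts of New Zealand White rabbits were compared on 4 arrays, each with a pool of either kind. Parthenotes came from oocytes that had been activated without sperm, by electrical pulses and then cycloheximide and 6-DMAP, and were recovered at day 6 after transfer to the oviducts of recipient does. Fertilised blastocysts were not activated in this way, came from artificially inseminated does and were recovered at the same age of 6 days. Ovulation was induced in the does of both groups, with buserelin acetate in the oocyte donors. Every array carried the parthenote pool in Cy3 and the fertilised pool in Cy5, with 150 ng of total RNA labelled per pool, so dye and group cannot be told apart. Each sample was a pool of embryos, which leaves the spread between single embryos unmeasured. Pools of an array share that array, and the 4 arrays are the replicates.

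Replication begins at origins, where the origin recognition complex and CDC6 load the MCM helicase ahead of S phase. The helicase is then activated with CDC45 and GINS, primase and polymerase alpha lay down primers, and the clamp loader RFC places the PCNA ring that keeps the main polymerases on DNA. Ligase joins the fragments of the lagging strand, and ribonucleotide reductase and thymidylate synthase supply the nucleotides. Repair is divided among pathways that recognise mismatched bases, cut out single damaged bases, or rejoin broken ends with or without a matching template. Blastocyst cells divide quickly, and dividing cells are known to need these genes.

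Probe sequences from the array files are given for the genes on which the comparison of nucleotide supply, end joining, ligation, mismatch repair and helicase activation turns. Each probe is 60 bases long and is written 5′ to 3′ as deposited. The capitals mark the 28 bases that the probes of MCM10 share, so that their values are not independent, while the probes of XRCC5 share no stretch of 10 bases. Here and below, a shared stretch is the end of 1 probe matching the start of another, and matches inside probes were not searched.
MCM10, probe 1: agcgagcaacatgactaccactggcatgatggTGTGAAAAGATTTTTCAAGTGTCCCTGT
MCM10, probe 2: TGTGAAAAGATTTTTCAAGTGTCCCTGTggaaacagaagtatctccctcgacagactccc
LIG1: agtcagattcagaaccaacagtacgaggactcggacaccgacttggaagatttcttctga
RRM1: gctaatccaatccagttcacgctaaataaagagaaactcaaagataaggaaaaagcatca
RRM2: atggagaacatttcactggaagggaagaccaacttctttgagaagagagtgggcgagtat
TYMS: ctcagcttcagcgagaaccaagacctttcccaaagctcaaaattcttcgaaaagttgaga
XRCC5, probe 1: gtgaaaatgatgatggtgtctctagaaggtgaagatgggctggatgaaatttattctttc
XRCC5, probe 2: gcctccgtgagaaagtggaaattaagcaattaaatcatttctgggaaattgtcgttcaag
XRCC6: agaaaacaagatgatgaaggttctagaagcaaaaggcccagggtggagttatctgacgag
MSH6: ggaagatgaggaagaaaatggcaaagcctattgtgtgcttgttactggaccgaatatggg

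The array files place some of these probes on a rabbit genome whose build they do not name. MCM10 was placed at chr16:17873920-17873979 and chr16:17873952-17874011, RRM1 at chr1:145053672-145053731 and XRCC5 at chr7:157550116-157550175 and chr7:157630197-157630256, all on the plus strand. MSH6 was placed on the minus strand, at chr2:138581683-138581742. The TYMS probe covered chr9:61684000-61685265 on the minus strand, a span of 1266 bases, so its 60 bases lie on both sides of an intron. No position was given for the probes of LIG1, RRM2 and XRCC6. The files do not say which probes lie in coding sequence.

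Differences between parthenotes and fertilised blastocysts were small and went both ways. Of the 29 replication genes, 5 were lower in parthenotes (MCM6, ORC2, CDC6, POLE and PRIM1), 6 were higher (RFC1, RFC4, RFC5, LIG1, RRM1 and TYMS) and 18 did not pass the test. Of the 6 repair genes found, MSH6 was lower, XRCC5 and XRCC6 were higher, and 3 did not pass. The listed repair genes that were not found, XRCC2 and NEIL3 among them, are outside this split. The test was limma on the log2 ratio of parthenote over fertilised, adjusted after Benjamini-Hochberg across the whole array, and a gene passed at an adjusted p under 0.05. As the samples are bulk pools, fewer cells of a type and less RNA per cell cannot be told apart. Mean log2 ratios ran from -0.46 for MCM10 to 0.41 for XRCC5. None of the 35 genes reached a mean of 1 in either direction, against 2.90% of the named genes that were well above background in both pools of every array. The median size of the mean, whatever its sign, was 0.19 over the 35 genes and 0.20 over those named genes. On every array, the signal of all 35 genes was well above background for the parthenote and for the fertilised pool.

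These counts have to be read against how many genes were called in all. Of all probes tested, 11.1% were lower and 9.53% were higher in parthenotes, and of the named genes, each by its brightest probe, 12.2% were lower and 11.8% were higher. Among the 6785 named genes with such a signal in both pools of every array, 14.5% were lower and 14.8% were higher. The replication genes, with 17.2% lower and 20.7% higher, were near that level, and so were the 35 genes together with 17.1% and 22.9%. The median log2 ratio was -0.05 over the 35 genes and -0.01 over the named genes well above background. Hence the counts do not set these genes apart, and the values of single genes are what follows.

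**Figure D1:**
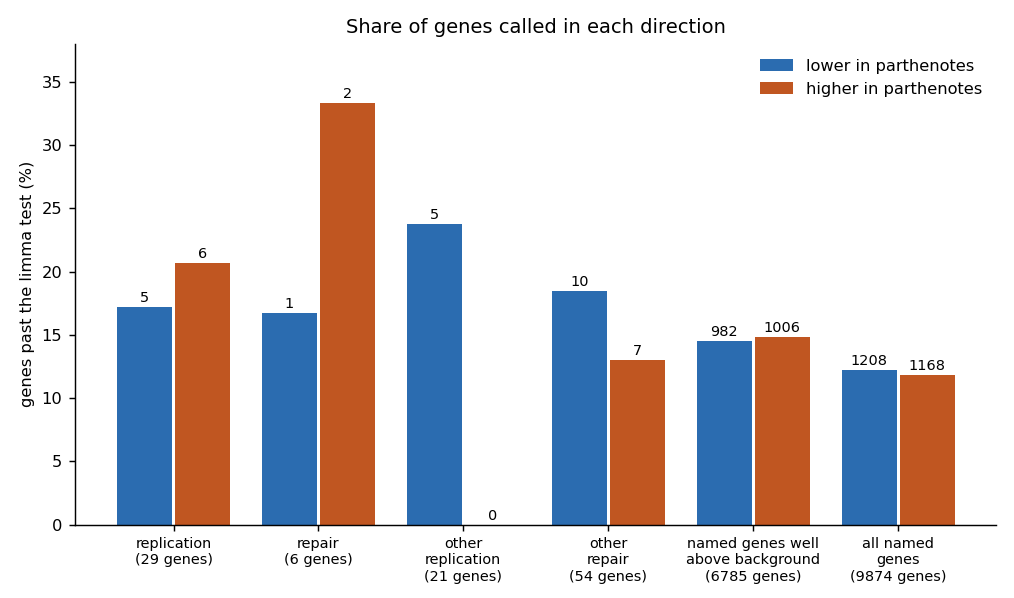
Share of genes past the limma test (vertical axis, percent) that were lower (blue) or higher (orange) in parthenotes, with the number of genes above each bar. The replication genes, with 17.2% lower and 20.7% higher, stood close to the named genes well above background, with 14.5% and 14.8%, and the repair bars rest on 6 genes.

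The number called depended on every array, for these genes and over all probes too. Leaving out arrays 1, 2, 3 and 4 in turn left 4, 0, 0 and 0 replication genes lower and 2, 0, 2 and 0 higher in limma. Over all probes, 4841 lower and 4155 higher became 3078, 1027, 1539 and 708 lower and 2658, 912, 1097 and 531 higher. At an unadjusted p under 0.05, the same fits gave between 6 and 8 replication genes lower and between 6 and 7 higher, beside 7 and 6 with all arrays. For the repair genes, leaving out each array left 2, 0, 0 and 1 lower and 0 higher each time, with between 1 and 3 lower and 2 higher at an unadjusted p under 0.05. Of the 14 called genes, MSH6 still passed with either of 2 arrays left out, MCM6, CDC6, RFC4, POLE, PRIM1, LIG1 and RRM1 with 1, and ORC2, RFC1, RFC5, TYMS, XRCC5 and XRCC6 with none. Their limma adjusted p then ran from 0.0236 to 0.165, while all kept their direction. The methods' t-test, run on the same log2 ratios with all 4 arrays, called 3 replication genes in each direction. Over all probes, that test called 3007 lower and 2619 higher. In the ratio of processed signals 7 replication genes were lower and 5 higher, and 2 repair genes each way, beside 7487 probes lower and 13912 higher. Under normexp background correction with loess and repaired local background, 7 replication genes were again lower and 5 higher, beside 6706 and 6413 probes. With each array centred on its median in place of loess, 29 replication genes and 5 repair genes were lower and 0 were higher, at an unadjusted p under 0.05 too. That centring put the median of the named genes well above background at -0.46, and relative to it 10 of the 14 called genes kept their side, all but ORC2, RFC4, RFC5 and RRM1.

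**Figure D2:**
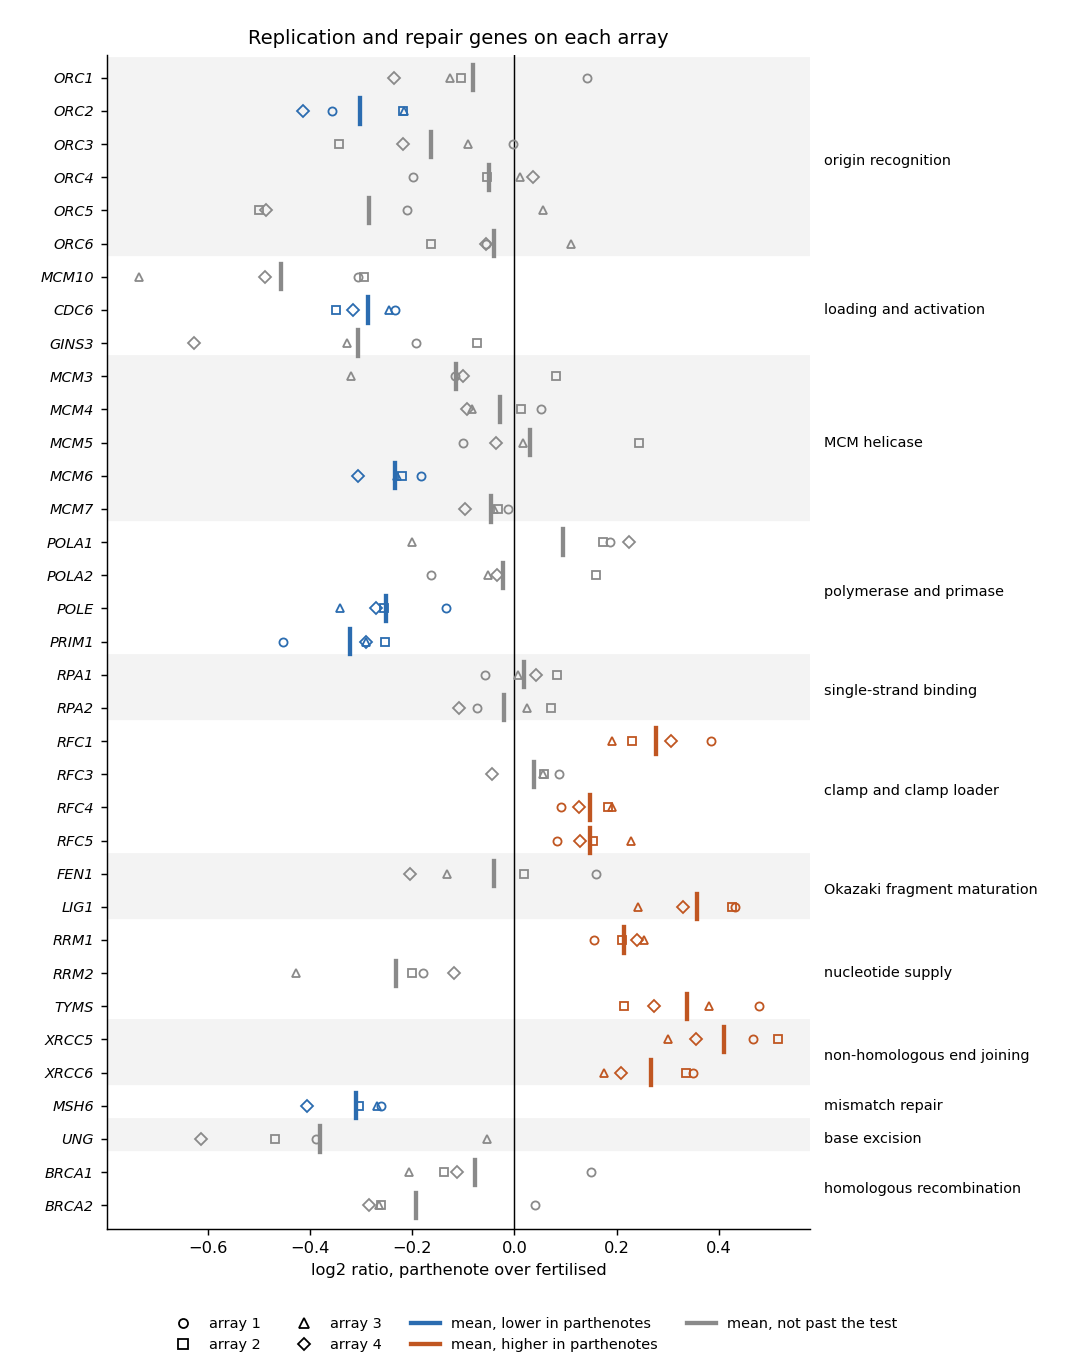
Log2 ratio of parthenote over fertilised (horizontal axis) for the 35 genes on each of the 4 arrays (open symbols), with the mean as a bar, grouped by role. Blue and orange mark genes past the limma test, and all points of these genes lie on 1 side of 0, while the points of many grey genes straddle it.

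Among the genes of origin recognition and of helicase loading or activation, all 9 means lay below 0 by the brightest probe. Of these genes, 2 passed the test. Of the 6785 named genes well above background, 3483 had a mean below 0 and 3302 a mean above 0. CDC6, which loads the helicase, had log2 ratios of -0.23, -0.35, -0.25 and -0.32 on arrays 1 to 4. Its values were close together and all below 0, with a mean of -0.29 ± 0.06 (SD, n = 4; limma adjusted p = 0.0146). ORC2, a core subunit of the origin recognition complex, gave -0.36, -0.22, -0.22 and -0.41. All arrays were again below 0 for ORC2, with a mean of -0.30 ± 0.10 (SD, n = 4; limma adjusted p = 0.0331). Its 3 probes, which share no stretch of 10 bases, had means between -0.45 and -0.30 and each passed the test. By its brightest probe, ORC2 passed in 8 of the 11 alternatives that kept every array. Under normexp with loess its mean was -0.13 and did not pass (limma adjusted p = 0.133).

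The other subunits of the origin recognition complex did not pass. ORC5 had log2 ratios of -0.21, -0.50, 0.06 and -0.49, so that array 3 stood on the other side of 0 and the mean was -0.29 ± 0.26 (SD, n = 4; limma adjusted p = 0.208). ORC3 had a mean of -0.16 ± 0.15 (SD, n = 4), below 0 on 4 arrays with array 1 at almost 0. ORC1, ORC4 and ORC6, the last of which is the smallest and most loosely bound subunit, had means between -0.08 and -0.04, with arrays on both sides of 0. The probes of ORC4 disagreed in sign, with means between -0.05 and 0.14.

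MCM10, which joins the helicase at activation and binds polymerase alpha, had the lowest mean of all 35 genes. Its brighter probe, MCM10 probe 1 above, gave -0.31, -0.30, -0.74 and -0.49. Every array was below 0 for MCM10, but array 3 lay far from arrays 1 and 2, and the mean of -0.46 ± 0.21 (SD, n = 4) did not pass the test (limma adjusted p = 0.0563), though it passed in 7 of the 11 alternatives that kept every array and in none with an array left out. The dimmer probe of MCM10, which overlaps the first by 28 bases, had log2 ratios of -0.48, -0.35, -0.81 and -0.62 and did pass (limma adjusted p = 0.0365). Both probes thus placed array 3 lowest and array 2 highest. GINS3, a subunit of the GINS complex of the active helicase, ranged from -0.63 on array 4 to -0.07 on array 2, with a mean of -0.31 ± 0.24 (SD, n = 4; limma adjusted p = 0.156). Its 5 probes share at least 56 bases and repeat nearly the same measurement.

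Of the MCM helicase itself, MCM6 was lower and the other 4 measured subunits did not pass. MCM6 had log2 ratios of -0.18, -0.22, -0.23 and -0.31, and all arrays were below 0 with little spread. The mean of MCM6 was -0.23 ± 0.05 (SD, n = 4; limma adjusted p = 0.0174). Its second probe, with no shared stretch of 10 bases, passed as well (limma adjusted p = 0.0281) at a smaller mean of -0.12. MCM3, MCM4, MCM5 and MCM7 had means of -0.11, -0.03, 0.03 and -0.05. MCM7 was below 0 on 4 arrays, between -0.10 and -0.01, and its limma adjusted p was 0.162, while the other three had arrays on both sides of 0.

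The polymerases and primase also split. PRIM1, the catalytic subunit of primase, had log2 ratios of -0.45, -0.25, -0.29 and -0.29, all below 0 with array 1 the lowest. The mean of PRIM1 was -0.32 ± 0.09 (SD, n = 4; limma adjusted p = 0.025), and its 3 probes, which share no stretch of 10 bases, all passed, with means between -0.40 and -0.32. POLE, the catalytic subunit of the leading-strand polymerase, gave -0.13, -0.25, -0.34 and -0.27, with a mean of -0.25 ± 0.09 (SD, n = 4; limma adjusted p = 0.0351). Of its 5 probes, which share at least 55 bases, 4 passed.

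POLA1, the catalytic subunit of polymerase alpha, which works in 1 complex with PRIM1, had log2 ratios of 0.19, 0.17, -0.20 and 0.22. Array 3 lay on the other side of 0 from the other arrays. POLA1 was above PRIM1 on all 4 arrays, by 0.64, 0.43, 0.09 and 0.51 on the log2 scale, a mean difference of 0.42 ± 0.24 (SD, n = 4) given as a description. POLA2, the accessory subunit of polymerase alpha, had a mean of -0.02 ± 0.13 (SD, n = 4). The single-strand binding subunits RPA1 and RPA2 were near 0, with means of 0.02 ± 0.06 and -0.02 ± 0.08 (SD, n = 4 each).

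The clamp loader stood on the other side, with means above 0 for all 4 measured subunits, of which 3 passed. RFC1, its large subunit, had log2 ratios of 0.38, 0.23, 0.19 and 0.31, all above 0. The mean of RFC1 was 0.28 ± 0.09 (SD, n = 4; limma adjusted p = 0.0296). The small subunits moved less. RFC4 had 0.09, 0.18, 0.19 and 0.13, with a mean of 0.15 ± 0.05 (SD, n = 4; limma adjusted p = 0.0322), and 2 of its 3 probes passed. RFC5 had 0.08, 0.15, 0.23 and 0.13, with a mean of 0.15 ± 0.06 (SD, n = 4; limma adjusted p = 0.0481). All 4 arrays were above 0 for both, but RFC5 lay just inside the threshold and passed in 3 of the 11 alternatives that kept every array. RFC3 had a mean of 0.04 ± 0.06 (SD, n = 4; limma adjusted p = 0.408) by its brightest probe and means up to 0.17 by its other probes, none of which passed.

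LIG1, the ligase that seals the fragments of the lagging strand, had log2 ratios of 0.43, 0.43, 0.24 and 0.33. All arrays were above 0, and arrays 1 and 2 were the highest. The mean of LIG1 was 0.36 ± 0.09 (SD, n = 4; limma adjusted p = 0.0214), a 1.28-fold higher signal in parthenotes. FEN1, the nuclease that trims the same fragments before ligation, gave 0.16, 0.02, -0.13 and -0.20, so its arrays lay on both sides of 0. Its mean was -0.04 ± 0.16 (SD, n = 4; limma adjusted p = 0.82).

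Of the enzymes of nucleotide supply, RRM1 and TYMS were higher in parthenotes and RRM2 did not pass the test. RRM1, the large subunit of ribonucleotide reductase, which makes deoxyribonucleotides, had log2 ratios of 0.16, 0.21, 0.25 and 0.24. Its arrays were among the tightest here, and the mean was 0.21 ± 0.04 (SD, n = 4; limma adjusted p = 0.0157). RRM2, the small subunit of the same enzyme, gave -0.18, -0.20, -0.43 and -0.12. All arrays were below 0 for RRM2, with array 3 the lowest, and the mean of -0.23 ± 0.14 (SD, n = 4) did not pass (limma adjusted p = 0.0918), though it passed in 5 of the 11 alternatives that kept every array. Its 5 probes, which share at least 47 bases, had means between -0.27 and -0.21, and 2 of them passed.

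RRM1 exceeded RRM2 on all 4 arrays, by 0.33, 0.41, 0.68 and 0.36 on the log2 scale, a mean difference of 0.45 ± 0.16 (SD, n = 4) given as a description. TYMS, thymidylate synthase, which makes the thymine nucleotide, had log2 ratios of 0.48, 0.21, 0.38 and 0.27. All arrays were above 0, and the mean of TYMS was 0.34 ± 0.12 (SD, n = 4; limma adjusted p = 0.0358), a 1.26-fold higher signal in parthenotes. Of its 4 probes, all with means above 0.20, 3 passed.

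**Figure D3:**
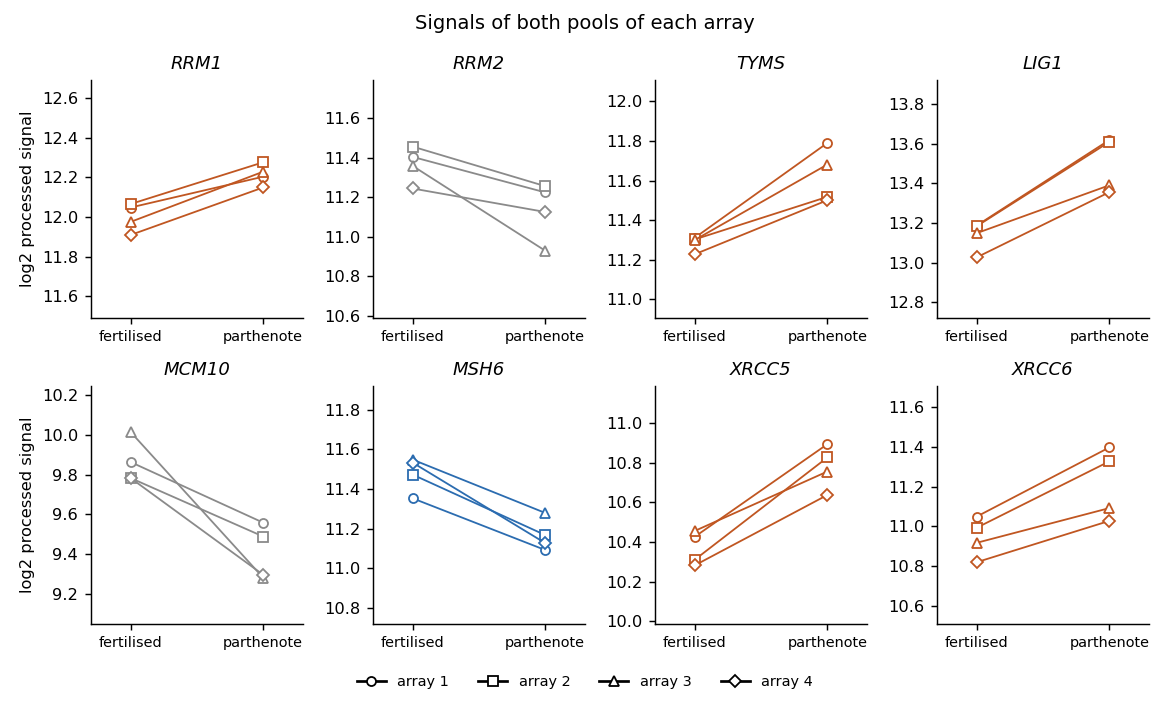
Log2 processed signal (vertical axis, a span of 1.2 in each panel) of the fertilised and the parthenote pool of each array, joined by a line per array, for 8 genes. Lines of RRM1, TYMS, LIG1, XRCC5 and XRCC6 rise on all 4 arrays, those of RRM2, MCM10 and MSH6 fall on all 4, and the steep MCM10 line of array 3 starts from the highest fertilised signal.

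Among the repair genes, both that were higher in parthenotes encode the Ku proteins, a pair that binds broken DNA ends and starts non-homologous end joining. XRCC5, the larger Ku subunit, had log2 ratios of 0.47, 0.52, 0.30 and 0.36. All arrays were above 0, and the mean of XRCC5, 0.41 ± 0.10 (SD, n = 4; limma adjusted p = 0.0202), was the highest of the 35 genes, a 1.33-fold higher signal in parthenotes. Its 3 probes, which share no stretch of 10 bases, had means between 0.41 and 0.44. The probe farthest along the transcript, XRCC5 probe 2 above, was the most variable, from 0.27 to 0.77, and did not pass (limma adjusted p = 0.0768).

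XRCC6, the smaller Ku subunit, had log2 ratios of 0.35, 0.33, 0.18 and 0.21, with a mean of 0.27 ± 0.09 (SD, n = 4; limma adjusted p = 0.0326). By their brightest probes, both Ku genes were higher on arrays 1 and 2 than on arrays 3 and 4. XRCC5 probe 2 went another way, highest on array 3 at 0.77 and lowest on array 2 at 0.27. XRCC5 exceeded XRCC6 by a mean of 0.14 ± 0.03 (SD, n = 4) on the log2 scale, above 0 on all 4 arrays.

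MSH6, which recognises mismatched bases, had log2 ratios of -0.26, -0.31, -0.27 and -0.41. All arrays were below 0, and the mean of MSH6 was -0.31 ± 0.07 (SD, n = 4; limma adjusted p = 0.017). Of its 5 probes, some of which share no stretch of 10 bases, 4 passed, and their means lay between -0.31 and -0.22. UNG, the enzyme that removes uracil from DNA, gave -0.39, -0.47, -0.05 and -0.61. UNG was below 0 on 4 arrays, but array 3 was near 0, and the mean of -0.38 ± 0.24 (SD, n = 4) did not pass (limma adjusted p = 0.103).

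BRCA1 and BRCA2, which serve homologous recombination, did not pass either. BRCA2, which loads the recombinase on single-stranded DNA, had log2 ratios of 0.04, -0.26, -0.27 and -0.29. Array 1 thus stood apart from the other arrays, and the mean was -0.19 ± 0.16 (SD, n = 4; limma adjusted p = 0.164). BRCA1 had a mean of -0.08 ± 0.16 (SD, n = 4; limma adjusted p = 0.524). It too was above 0 on array 1 alone, at 0.15, and its 3 probes disagreed in sign, with means between -0.08 and 0.12.

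**Figure D4:**
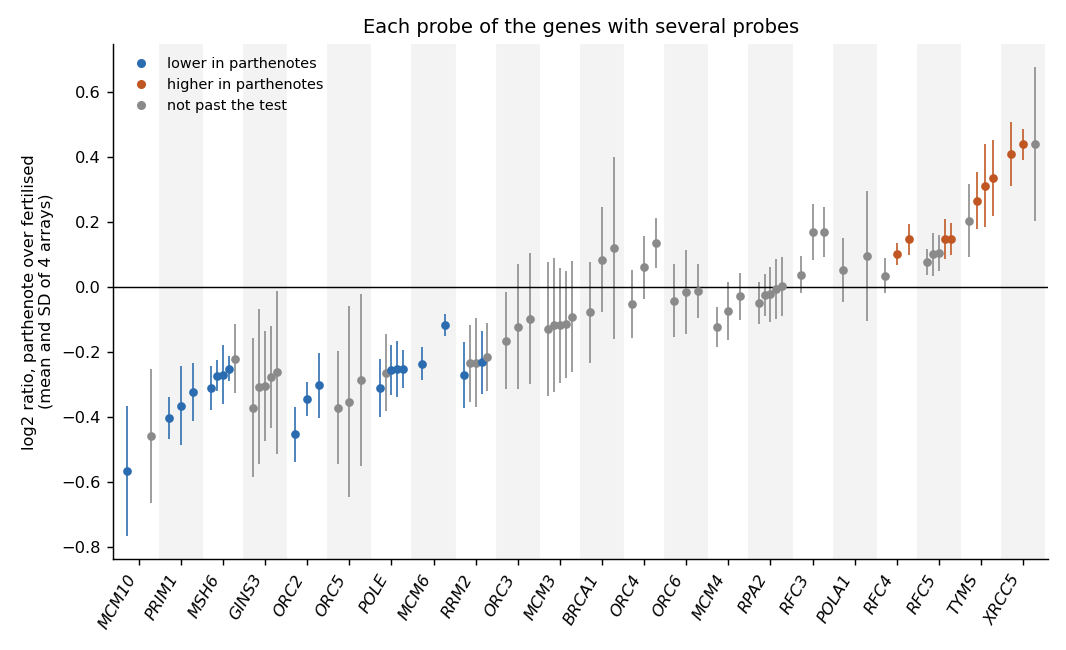
Mean log2 ratio of parthenote over fertilised with the SD of 4 arrays (vertical axis) for each probe of the 22 genes with several probes, in order of the gene's brightest probe. Probes of a gene mostly lie within each other's SD, and those of BRCA1, ORC4 and RPA2 differ in sign. Single probes of MCM10, MSH6, POLE, RFC4, TYMS and XRCC5 and several of RFC5 and RRM2 miss the test (grey) beside others that pass.

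Of the 22 genes with several probes, all probes passed for MCM6, ORC2 and PRIM1, some passed for 8 genes and none for 11. Probes of a gene are not replicates, since they share the RNA and often the bases. In 5 of these genes all probes share at least 50 bases, and in 14 some probes share no stretch of 10. The GC content of the brightest probes had a median of 43.3% over the 6 genes that were lower, 44.2% over the 8 that were higher and 45% over the 21 that did not pass.

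Other genes of the same pathways, from lists drawn up by pathway, were read in the same way. Of 38 further replication genes, 21 had a probe, 5 were lower in parthenotes (23.8%) and 0 were higher in limma, where 1 was higher at an unadjusted p under 0.05, and the methods' t-test gave 4 lower and 0 higher. Leaving out arrays 1, 2, 3 and 4 left 1, 0, 2 and 0 lower and 1, 0, 0 and 0 higher in limma, with between 5 and 7 lower and 1 or 2 higher at an unadjusted p under 0.05. Without pairing 3 were lower, and with median centring 20 were. The genes called with all arrays were TIPIN and CLSPN, which protect and monitor the replication fork, DSCC1, part of an alternative clamp loader, DCTD, which helps form the precursor of the thymine nucleotide, and POLD3, a subunit of polymerase delta. TIPIN had log2 ratios of -0.52, -0.30, -0.38 and -0.49, with a mean of -0.42 ± 0.10 (SD, n = 4; limma adjusted p = 0.0199). DCTD, CLSPN and DSCC1 had means of -0.38, -0.33 and -0.31 and were below 0 on all 4 arrays. The median over the 21 genes was -0.11, and the share called higher was lower than the 14.8% of named genes well above background, a difference that was not tested.

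Of 85 further repair genes, 54 had a probe, 10 were lower (18.5%) and 7 were higher (13%), near the shares of the named genes. Leaving out arrays 1, 2, 3 and 4 left 6, 2, 4 and 2 lower and 6, 2, 2 and 1 higher. The methods' t-test gave 8 lower and 3 higher, normexp with loess and repaired local background gave 18 and 11, and median centring gave 45 and 1. CHEK1, the checkpoint kinase that answers stalled forks, had log2 ratios of -0.44, -0.38, -0.40 and -0.42, with a mean of -0.41 ± 0.03 (SD, n = 4; limma adjusted p = 0.00462). All arrays of CHEK1 were nearly alike. XRCC4, which works after the Ku proteins in end joining, was lower with a mean of -0.52 ± 0.10 (SD, n = 4; limma adjusted p = 0.0147), opposite in direction to XRCC5 and XRCC6. REV1, a polymerase of translesion synthesis, and PALB2, the partner of BRCA2, had means of -0.38 and -0.30 and passed with all 4 arrays below 0.

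POLB, the gap-filling polymerase of base excision repair, had the largest mean of all these genes, with log2 ratios of 0.74, 0.74, 0.67 and 0.66. Its mean of 0.70 ± 0.04 (SD, n = 4; limma adjusted p = 0.00443) is a 1.63-fold higher signal in parthenotes. DDB1, an adaptor for the recognition of ultraviolet damage, and NEIL2, a glycosylase of base excision, passed with means of 0.44 and 0.43 and all arrays above 0. ERCC4, a nuclease subunit of nucleotide excision, passed too, but its probe was not well above background in either channel on any array, so no value is given for it.

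Markers of other cell types differed between the groups too. Of the markers of motile ciliated cells, 3 of 7 were higher in parthenotes and 1 was lower, from CCNO, a cyclin of cells forming cilia, at a mean log2 ratio of -1.02 to RSPH1, a protein of the ciliary shaft, for which no value is given since its probe was not well above background in any fertilised pool. Their summed processed signal was between 1097 and 2852 in parthenote pools against 494 to 640 in fertilised pools. CAPS, the brightest of these markers, made up between 43.9% and 83.6% of these sums. Without CAPS they overlapped, at 257 to 467 in parthenote against 223 to 359 in fertilised pools, sums that include CCNO. The median log2 ratio of the 7 markers was 2.11. CAPS and DNAI1 had means of 2.42 and 2.11, and each passed by all 5 of its probes. DNAI1 was well above background on 3 arrays for parthenotes and 1 for fertilised blastocysts. SPAG6, with a mean of 1.08 and all 4 arrays above 0, did not pass by its brightest probe, but 2 of its 5 probes did. FOXJ1, the regulator that defines these cells, was not well above background in any pool. For secretory epithelium of the oviduct and uterus, 2 of 3 were higher, OVGP1 and SCGB1A1, from a mean of 0.01 for WFDC2 to 3.87 for OVGP1, the oviduct glycoprotein, with sums between 8550 and 32698 against 4521 to 8174. Without WFDC2 these sums were 5802 to 25583 in parthenote against 673 to 2231 in fertilised pools and did not overlap either. Leukocyte markers had sums between 344 and 431 against 191 to 208, with 2 of 6 higher, from a mean of -0.02 for ITGAM to 1.85 for CD48, while PTPRC and CD3E, which define these cells, were not well above background in any pool. The other marker that was higher was CD14, with a mean of 0.92 (limma adjusted p = 0.0122). Without CD14 the leukocyte sums were 139 to 185 in parthenote against 74 to 94 in fertilised pools and did not overlap either.

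Markers of the embryo's own tissues were present in both groups. POU5F1, a regulator of pluripotent cells, and KRT8, a keratin of trophectoderm, were higher in parthenotes with mean log2 ratios of 0.21 and 0.58, and GATA2, a trophectoderm regulator, was lower with a mean of -0.64. The epiblast list ran from a mean of -0.37 for GDF3 to 0.31 for DPPA5 with 1 of 4 higher, and the primitive endoderm list from -0.34 for GATA4 to -0.05 for APOE, neither past the test. Summed signals overlapped between the groups for the epiblast, 19945 to 27024 against 20751 to 26719, and for the primitive endoderm, 406 to 679 against 450 to 629. GDF3 made up between 26.6% and 59.0% of the epiblast sums. Without GDF3 they did not overlap, at 11810 to 14632 in parthenote against 10359 to 11532 in fertilised pools. Without APOE the primitive endoderm sums still overlapped, at 67 to 115 against 102 to 130. Trophectoderm sums were 21609 to 30271 in parthenote and 17696 to 19637 in fertilised pools and did not overlap, with 1 of 6 markers higher and 1 lower. KRT8 made up between 83.8% and 92.5% of these sums, and without it they overlapped, at 2220 to 2832 against 2436 to 2950. The part of these cell types in the ratios of replication and repair genes was not tested.

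**Figure D5:**
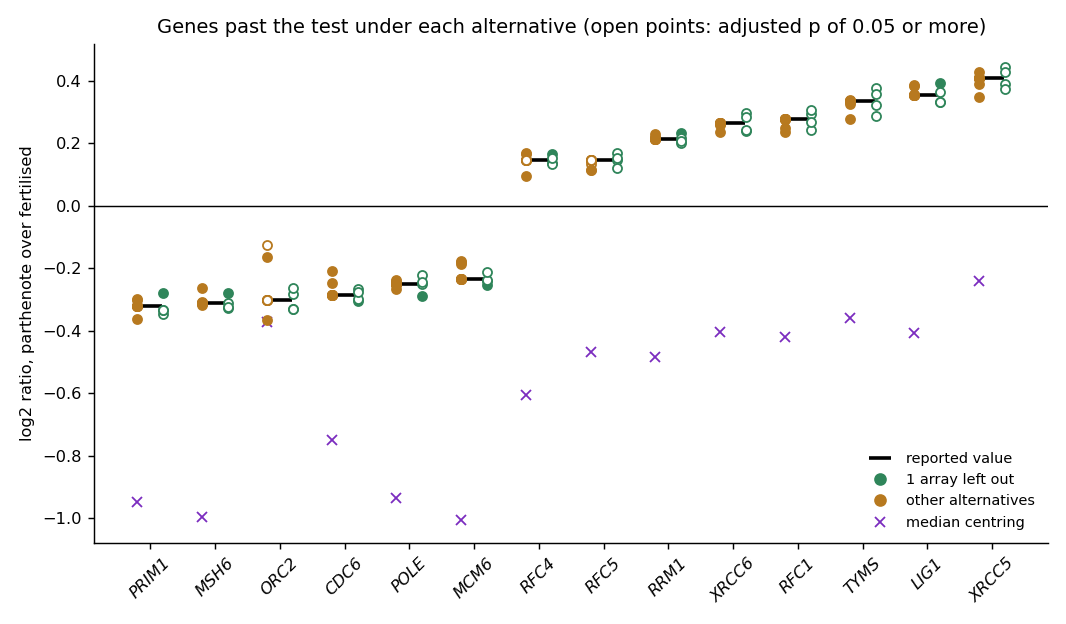
Log2 ratio of parthenote over fertilised (vertical axis) of the 14 genes past the test, as reported (black bar), with each array left out (green), under the other alternatives (brown) and with median centring (purple crosses); open points have an adjusted p of 0.05 or more. Most green points are open, and the purple crosses all lie below 0, from -1.01 for MCM6 to -0.24 for XRCC5.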

How the data were processed

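Transcripts were measured on 4 Agilent 2-colour arrays, all on a single slide. The authors extracted the scans with Feature Extraction 10.10.1.1 and deposited, per spot, mean and local background intensity in each channel, processed intensity (background subtracted, dyes normalised within the array) and the log10 ratio of Cy5 over Cy3. The authors' value table of the series holds the same log10 ratio with its sign turned, to within 1.66e-05 on the log2 scale. The methods name outlier removal and a t-test with Benjamini-Hochberg adjustment.

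Here the deposited log10 ratios were put on the log2 scale as parthenote over fertilised, so signs follow the parthenote. Control spots were dropped, and so were 26 to 48 spots per array that the software marked as non-uniform or as population outliers. Replicate spots were averaged per probe. A probe needed values on at least 3 arrays. Its mean was tested against 0, two-sided, by lmFit and eBayes of limma 3.58.1 under R 4.3.3, a step that was tested on simulated data. The number of arrays limits the precision. Spots well above background numbered 25805 to 26339 per array for parthenotes and 27508 to 27835 for fertilised blastocysts, and the log2 ratios of pairs of arrays correlated by 0.67 to 0.82 (Pearson r across probes, which are not independent). The ratio pairs the pools of an array, and deviations of the pools of an array from their group means correlated by 0.60 to 0.65. Summaries used Python 3.11.15, numpy 2.4.6, pandas 2.3.3 and matplotlib 3.10.9.

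Of 43603 probes, 22319 were given 1 symbol, 21 several and 21263 none, through the RefSeq accession (12536), a gene identifier in the description (8565), the gene name column (377), a symbol in the description (375) or another probe of the transcript (487). The table of rabbit genes belongs to mOryCun1.1 and gave names only. Nothing says whether the pools came from separate sets of animals, so p-values measure the spread between these arrays. The genes and lists were chosen with earlier results of these data known. Named were all listed genes with a probe, by their brightest probe on average. Of the further pathway genes, the 4 with the largest means each way were named, among those past the test with 1 sign on all arrays. Markers at either end of each list's range were named too. POLD3, POU5F1, SCGB1A1, FOXJ1, CAPS, DNAI1, SPAG6, CD14, PTPRC and CD3E were named after their values were seen. Alternatives were normexp (offset 50) with loess, the same after repair of the local background of spots more than 20 units below it, the latter with median centring, the ratio of processed signals, the value table, a dim-probe filter, marked spots kept, trend and robust estimation, the methods' t-test, a fit without pairing, each array left out and, for genes with several probes, their average.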

Additional observations from a re-analysis of the deposited data

Results flagged for a closer look

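In 2 of the 35 genes, 1 array lay far from the other arrays, with a gap over Dixon's limit for 4 values. POLA1 had a log2 ratio of -0.20 on array 3, a gap of 0.88 of the range, and BRCA2 had 0.040 on array 1, a gap of 0.93. Chance gives such a gap in about 1 in 20 groups, and neither gene passed the test with all arrays. Without array 3, POLA1 passed in limma with a mean log2 ratio of 0.19, and without array 1, BRCA2 passed with a mean of -0.27. Each of these arrays was left out because it lay apart in the same values, so the passes are no support for a difference.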

How the results depend on the processing

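Over the 15 alternatives, 504 of 525 values of the 35 genes kept their direction, as did 202 of the 210 values of the 14 called genes. The value table changed no call, since it holds the same ratios. Median centring turned the direction of RFC1 (-0.42), RFC3 (-0.71), RFC4 (-0.61), RFC5 (-0.47), LIG1 (-0.41), RRM1 (-0.48), TYMS (-0.36), XRCC5 (-0.24), XRCC6 (-0.41), POLA1 (-0.51), RPA1 (-0.56) and MCM5 (-0.63), the first 9 except RFC3 being called genes. There the median over all probes was 0.00, that of named genes well above background was -0.46, and the calls over all probes were 19023 lower and 18939 higher. Other turns were in genes near 0: MCM5 (-0.0069) and RPA1 (-0.00030) under normexp with loess, and ORC4 (0.049) and BRCA1 (0.043) with the mean of all probes. With an array left out, the mean ran from -0.041 to 0.075 for MCM5, from -0.083 to 0.025 for POLA2, from -0.0028 to 0.044 for RPA1, from -0.052 to 0.0080 for RPA2 and from -0.11 to 0.015 for FEN1.

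Among the 35 genes, counts that moved by over 1.5 times were these. Replication genes lower, 5 as reported, were 29 with median centring, 3 by the methods' t-test and 0 to 4 with an array left out. Replication genes higher, 6 as reported, were 0 with median centring, 3 by the t-test, 3 without pairing and 0 to 2 with an array left out. Repair genes lower, 1 as reported, were 5 with median centring, 2 in the ratio of processed signals, 2 under the dim-probe filter and 0 to 2 with an array left out. Repair genes higher, 2 as reported, were 0 with median centring, 1 by the t-test, 1 without pairing and 0 with any array left out. Of the further pathway genes, replication genes lower went from 5 to 20 with median centring, 3 without pairing and 0 to 2 with an array left out, and repair genes went from 10 lower and 7 higher to 45 and 1 with median centring, 18 and 11 under loess with repaired background, 3 higher by the t-test, and 2 to 6 lower and 1 to 6 higher with an array left out. With no replicate block, that is without pairing the pools of an array, 5 replication genes and 1 repair gene were lower. Calls over all probes were 5241 lower and 11117 higher in that fit. An array left out leaves fewer values per gene, and calls over all probes then fell from 4841 lower and 4155 higher to between 708 and 3078 lower and between 531 and 2658 higher. The cause of the shift under median centring was not tested. All 35 genes were well above background, their ratios were small, the arrays were 4 and the dyes were unswapped. What limited the calls was not tested.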
